A study of Canis lupus familiaris with 6 samples.

Results

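BNIP3 and related genes of mitophagy were followed in canine mammary tumor cells grown with or without myeloid-derived suppressor cells (MDSCs). They are represented by every non-control probe whose name in the files is one of 10, namely BNIP3, BNIP3L, FUNDC1, PINK1, PARK2, BECN1, SQSTM1, MAP1LC3A, MAP1LC3B and GABARAPL1. Of these names, 7 have at least 1 probe, with 18 probes in all out of 43603, and PINK1, BECN1 and SQSTM1, for which no probe was found by name, are not analysed here. BNIP3 was chosen by its measured ratio of co-culture over monoculture, which was above 0 at bright probes, so that its ratios in that comparison, and those of the genes set beside it, are given as a description with no test.

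RNA came from a simple carcinoma line (CMT-U27), a spindle cell tumor line (CMT-U309) and an anaplastic cancer line (P114), each grown alone or below transwell inserts that held MDSCs sorted from healthy dogs' blood. The co-culture lasted at least 72 h according to the deposited sample descriptions, while the methods of the study give a shorter time. Both RNAs of a line, one in the green dye Cy3 and one in the red dye Cy5, were hybridized together to Agilent canine 4x44K oligo microarrays. Each of the 3 lines has a pair of arrays with the dyes exchanged, called array 1 where Cy5 marked the co-culture and array 2 where Cy3 did, which makes 6 arrays and 12 channels. Both arrays of a line carry the same RNAs and were counted as 1 replicate, so that n is 3 lines, and nothing in the descriptions tells whether a line was cultured more than once.

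Mitophagy is the removal of mitochondria by autophagy. BNIP3, BNIP3L (also called NIX) and FUNDC1 are receptors in the outer mitochondrial membrane that bind proteins of the LC3 and GABARAP family, which sit on the growing autophagosome and are represented here by MAP1LC3A, MAP1LC3B and GABARAPL1. PINK1 and the ubiquitin ligase Parkin, the product of PARK2, form another route, and BNIP3 is known as a gene that the hypoxia-inducible factor HIF-1 switches on.

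The probes are 60 bases long, and the positions that the files give are on canFam2. BNIP3 has probes on chromosome 28 at 43036673 to 43036732 (A_11_P0000040448, probe 1) and at 43039258 to 43039317 (A_11_P051591, probe 2), both on the minus strand. BNIP3L has 3 probes on chromosome 25, and probe 1 (A_11_P070416) spans 1998 genomic bases, so that its target is not contiguous in the genome. The files do not say whether a probe lies in coding sequence or in an untranslated region. The following probes are shown because the results below turn on them or because their targets overlap. Of the MAP1LC3B probes, probe 4 ends with the same 15 bases with which probe 3 begins, which are in capitals.
BNIP3 probe 2, chr28:43039258-43039317, minus strand: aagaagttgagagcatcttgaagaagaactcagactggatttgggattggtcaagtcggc
BNIP3L probe 1, chr25:34126757-34128754, minus strand: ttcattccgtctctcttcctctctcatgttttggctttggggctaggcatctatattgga
FUNDC1 probe 1, chrX:38440984-38441043, minus strand: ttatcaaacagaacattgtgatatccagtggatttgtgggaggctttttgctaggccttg
GABARAPL1 probe 1, chr27:38803348-38803407, minus strand: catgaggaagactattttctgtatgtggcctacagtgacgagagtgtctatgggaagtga
MAP1LC3B probe 4, chr5:68671482-68671541, minus strand: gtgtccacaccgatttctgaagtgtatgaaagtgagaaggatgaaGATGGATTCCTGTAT
MAP1LC3B probe 3, chr5:68671437-68671496, minus strand: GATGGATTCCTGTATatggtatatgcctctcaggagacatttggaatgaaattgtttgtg

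Probes 1 and 2 of MAP1LC3A share 59 bases. The targets of probes 2 and 3 of GABARAPL1 overlap by 47 genomic positions, but the probe sequences are not identical there. Both pairs are close to repeat measurements of one target. The probes of BNIP3, BNIP3L and FUNDC1 do not overlap in sequence.

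Between 53.0% and 81.0% of the spots of a channel were well above background, a flag that Feature Extraction sets from the signal of a spot and the spread of the background. Of the 18 member probes, 17 passed the filter on intensity, and 16 were well above background in all 12 channels. The exceptions are both PARK2 probes, which were well above background in none. No member spot was saturated. Across all probes, both arrays of a line correlated at -0.39 to 0.26 in their log2 ratios, and the 16 bright member probes correlated at 0.42 (P114), 0.51 (CMT-U27) and 0.55 (CMT-U309, each over 16 probes), as a description of points that share their RNA and slide. The sets are unlike and are not compared, since the members are all bright, some overlap, and BNIP3 was chosen by its ratio. Between P114 and CMT-U27 the epithelial markers EPCAM and KRT14 differed in level by -6.25 and 0.80 on the log2 scale, and the mesenchymal markers VIM and COL1A2 by 6.67 and 4.63 (P114 minus CMT-U27). CMT-U27 was thus the line with high EPCAM and low VIM. All results concern bulk RNA, in which fewer cells of a kind and less RNA per cell cannot be told apart.

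BNIP3 had a higher signal in co-culture than in monoculture on 6 of 6 arrays at both of its probes. At probe 1 the scaled signal in P114 was 42268 in co-culture and 22818 in monoculture on array 1, and 39978 and 30812 on array 2. In CMT-U27 it was 3568 and 2496 on array 1, and 3246 and 2384 on array 2, again with co-culture first. In CMT-U309 it was 13780 and 9913 on array 1, and 18993 and 10072 on array 2. In every line both co-culture channels lay above both monoculture channels, although the lines themselves were far apart. BNIP3 was chosen by this ratio, and the share of all bright probes with such a separation was not counted. Nothing is therefore read from the separation.

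At BNIP3 probe 2 the scaled signal in P114 was 4930 in co-culture and 3405 in monoculture on array 1, and 5891 and 3342 on array 2. In CMT-U27 it was 534 and 315 on array 1, and 591 and 353 on array 2. In CMT-U309 it was 3015 and 1361 on array 1, and 2648 and 1300 on array 2. Here too co-culture and monoculture channels did not overlap within any line, which is again a description of a gene chosen by its ratio.

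Co-culture over monoculture gave a mean log2 ratio of 0.60 (SD 0.11, n = 3 lines, 1.52-fold) at BNIP3 probe 1 and 0.84 (SD 0.22, n = 3 lines, 1.79-fold) at probe 2. Averaged over both probes it was 0.72 (SD 0.15, n = 3 lines, 1.65-fold), and single arrays lay between 0.59 and 0.97. The averages by dye were close, since probe 1 averaged 0.63 with co-culture RNA in Cy5 and 0.58 with it in Cy3, and probe 2 averaged 0.82 and 0.86. Within lines the arrays differed more, in opposite directions. On arrays 1 and 2, probe 1 gave 0.89 and 0.38 in P114, 0.52 and 0.45 in CMT-U27, and 0.48 and 0.92 in CMT-U309. Among the 20740 probes of the array that stood well above background in each of the 12 channels (called bright here), 1.11% had a mean log2 ratio of at least that of probe 1. Neither BNIP3 probe reached the fold change over 2 that the study required together with an unadjusted P under 0.05, thresholds at which 1.03% of 40861 tested probes were called higher and 0.198% lower. After Benjamini-Hochberg adjustment in limma, 0 probes of the array passed, while 4058 (9.93%) had an unadjusted P under 0.05. Over 22 alternatives, the mean of BNIP3 stayed between 0.63 and 0.77. Those that change only the test or the probe filter cannot move this mean, and others leave out arrays or lines. Normexp with loess gave 0.63, the deposited ratios and no scaling both gave 0.70, and leaving out CMT-U27 gave 0.77.

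**Figure D1:**
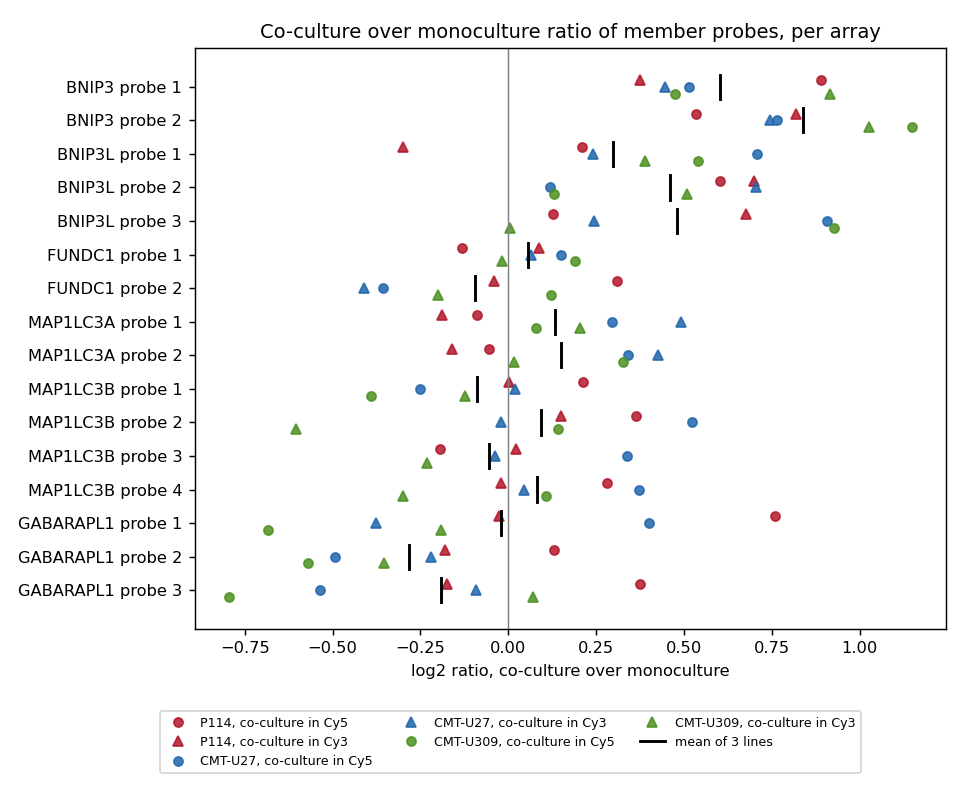
Log2 ratio of co-culture over monoculture (x axis) of the 16 member probes that were well above background in all 12 channels, with 1 point per array. Colors mark the lines, circles mark co-culture RNA in Cy5, triangles mark it in Cy3, and vertical bars mark the mean of 3 lines; all BNIP3 points lie right of 0, whereas those of GABARAPL1, FUNDC1 and MAP1LC3B lie on both sides.

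BNIP3L, the closest relative of BNIP3, had smaller ratios in the same direction. Its mean log2 ratio was 0.30 (SD 0.30) at probe 1, 0.46 (SD 0.17) at probe 2 and 0.48 (SD 0.09) at probe 3, each with n = 3 lines, and 0.41 (SD 0.08, 1.33-fold) over the 3 probes. Probes 2 and 3 were higher in co-culture on 6 of 6 arrays and probe 1 on 5 of 6. The exception was array 2 of P114, where the signal of probe 1 was 44551 in co-culture and 54891 in monoculture, a log2 ratio of -0.30. The arrays of a line differed at probe 3, which gave 0.91 and 0.24 on the arrays of CMT-U27 and 0.93 and 0.00 on those of CMT-U309. With co-culture RNA in Cy5 and in Cy3, the averages were 0.49 and 0.11 at probe 1, 0.28 and 0.64 at probe 2, and 0.65 and 0.31 at probe 3.

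FUNDC1, a receptor that is not a close relative of BNIP3, had mean log2 ratios of 0.06 (SD 0.07) at probe 1 and -0.10 (SD 0.26) at probe 2 (n = 3 lines). Its arrays fell on both sides of 0, from -0.13 to 0.19 at probe 1 and from -0.41 to 0.31 at probe 2. Both means were within the spread of single arrays.

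Parkin could not be measured. At PARK2 probe A_11_P0000028220 the scaled signals ran from 1.57 to 26.3, and at A_11_P110836 from 1.37 to 9.95, none of them well above background, so no fold is given. The first of these was the 1 member probe that passed the thresholds of the study in the higher direction, and 0 member probes passed in the lower direction, beside the 1.03% and 0.198% of all tested probes given above. The second did not pass the filter on intensity.

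The LC3 and GABARAP genes among the members had smaller ratios of mixed sign. Outside the members, GABARAP itself stood at 0.42 (SD 0.45, n = 3 lines), GABARAPL2 at -0.14 and MAP1LC3C at -0.21. MAP1LC3A had mean log2 ratios of 0.13 (SD 0.27) and 0.15 (SD 0.25) at its overlapping probes (n = 3 lines). In P114 the ratios were -0.09 and -0.19 at probe 1 on arrays 1 and 2, while in CMT-U27 they were 0.30 and 0.49 and in CMT-U309 0.08 and 0.20. The sign was thus negative in P114 and positive in the other lines, at probe 2 as well, and this difference was not tested.

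MAP1LC3B, the LC3 protein most often used as a marker of autophagosomes, had mean log2 ratios of -0.09, 0.09, -0.06 and 0.08 at probes 1 to 4, with SDs between 0.16 and 0.28 (n = 3 lines). Probe 3 had no value on array 1 of CMT-U309, where the spot was marked as an outlier, so that this line rests on 1 array there. None of the means was larger than the spread between lines. GABARAPL1, a GABARAP family member, had mean log2 ratios of -0.02 (SD 0.40), -0.28 (SD 0.23) and -0.19 (SD 0.25) at probes 1 to 3 (n = 3 lines). Single arrays of GABARAPL1 probe 1 reached from -0.68 in CMT-U309 to 0.76 in P114. Probe 2 was lower in co-culture on all arrays except array 1 of P114, where its log2 ratio was 0.13.

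Of the 16 bright member probes, 4 were higher in co-culture on 6 of 6 arrays, both of BNIP3 and probes 2 and 3 of BNIP3L, and 0 were lower on all. The shares over all probes of the same brightness were 3.97% and 1.85%. Since BNIP3 was chosen for this behaviour, nothing is read from the count. The median log2 ratio was 0.09 over the 16 member probes, 0.01 over all probes well above background in all channels and 0.01 over all 40861 tested probes.

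CMT-U27 differed from the other lines in the level of BNIP3 and GABARAPL1 by more than the cultures did. Brightness entered the choice of BNIP3, but differences in level between lines did not, and these were tested with limma over 6 RNA samples, with line and culture in the model and Benjamini-Hochberg adjustment over all 40861 probes of each contrast. The 2 cultures of a line serve as its replicates in that test, so its SE does not measure the spread between repeated cultures of a line. Each line lies on a slide and a scan of its own, so line and slide cannot be told apart in any result on levels. At adjusted P under 0.05, 9 of 17 member probes were higher and 3 lower in P114 than in CMT-U27, where 19.7% of all probes were higher and 21.7% lower. For P114 against CMT-U309 the counts were 7 and 1, with 17.7% and 11.8% of all probes. For CMT-U27 against CMT-U309 they were 5 and 8, with 26.9% and 19.7% of all probes. The median difference over member probes was 0.59, 0.28 and -0.49 in this order, and over all probes 0.15, 0.14 and 0.04. The sets differ in brightness, since 16 of the 17 member probes were bright but only 20740 of the 40861 probes behind the shares were. In a fit of bright probes alone, 5291 probes were higher in P114 than in CMT-U27. The scaling matters here, since without it the median over all probes moved to -0.30, -0.63 and -0.28, and the share of called probes that were higher moved from 47.6% to 20.9%, from 60.1% to 7.89% and from 57.7% to 38.6%. With normexp background correction the shares were 29.5%, 54.5% and 75.8%, and with centring on bright probes 54.4%, 47.2% and 43.1%. Directions are relative to these medians.

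**Figure D2:**
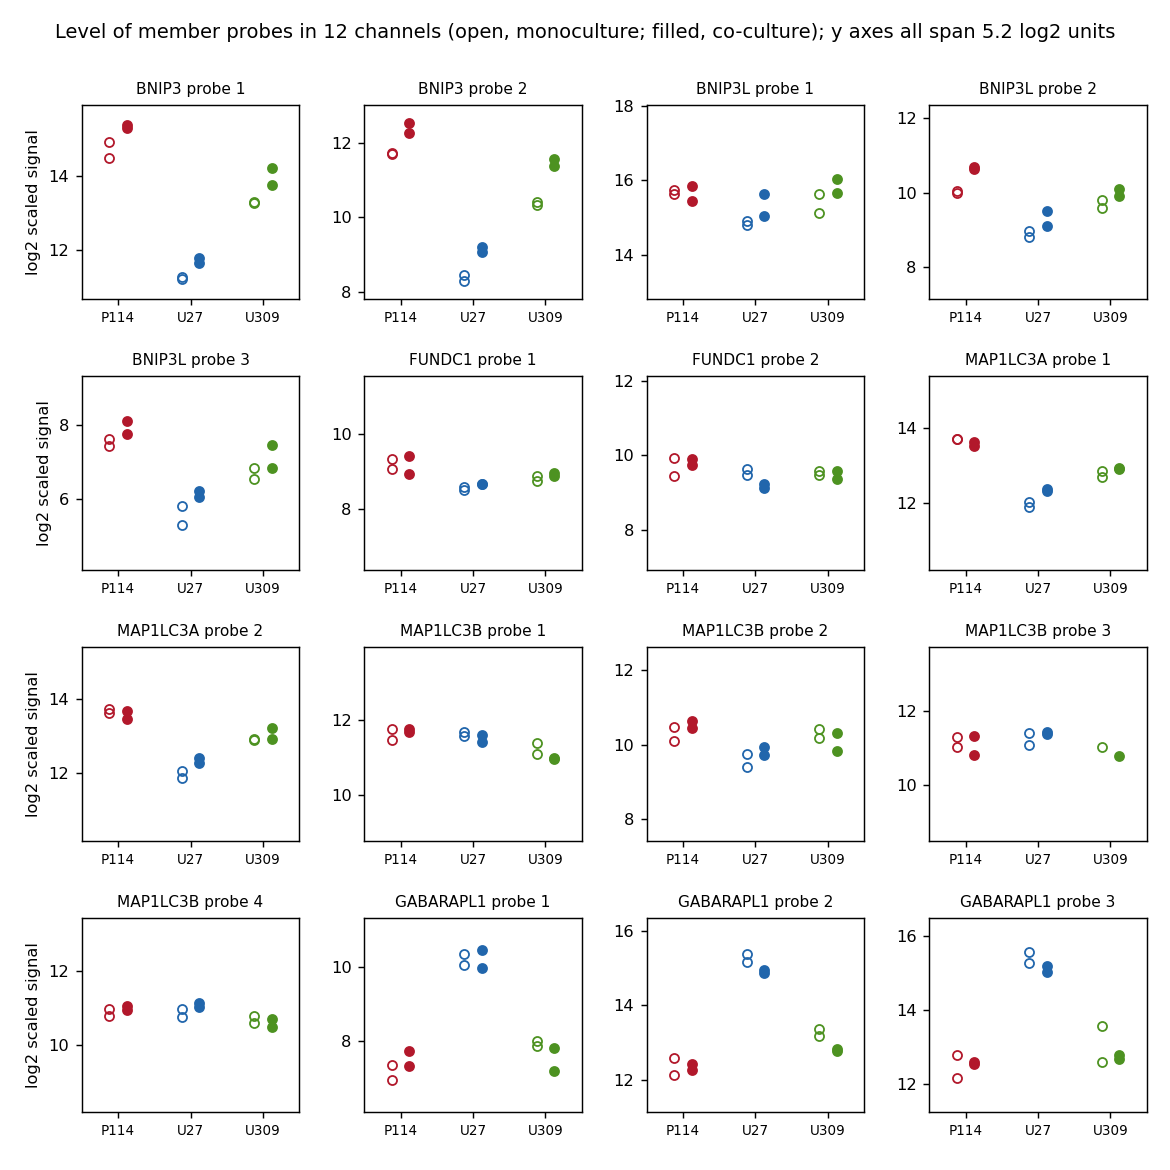
Scaled signal on a log2 axis of the 16 bright member probes in P114, CMT-U27 (U27) and CMT-U309 (U309), with 1 point per channel, open for monoculture and filled for co-culture, and axes of equal span. BNIP3 was highest in P114 and lowest in CMT-U27, GABARAPL1 was highest in CMT-U27, and MAP1LC3B had no order that its probes shared.

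BNIP3 was highest in P114, lower in CMT-U309 and lowest in CMT-U27. At probe 1 the 4 channels of a line ran from 22818 to 42268 in P114, from 9913 to 18993 in CMT-U309 and from 2384 to 3568 in CMT-U27. At probe 2 they ran from 3342 to 5891, from 1300 to 3015 and from 315 to 591 in the same order. No channel of a line overlapped with those of another line at either probe, which held for 51.7% of all bright probes between P114 and CMT-U27, 42.5% between P114 and CMT-U309 and 57.3% between CMT-U27 and CMT-U309.

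Between P114 and CMT-U27 the level of BNIP3 differed by 3.52 on the log2 scale at probe 1 (SE 0.13, 11.5-fold, adjusted P = 2.78e-08 in limma) and by 3.30 at probe 2 (SE 0.15, 9.85-fold, adjusted P = 8.65e-08). P114 exceeded CMT-U309 by 1.38 and 1.14, and CMT-U27 lay below CMT-U309 by differences of -2.14 and -2.16 (adjusted P from 8.45e-07 to 3.28e-04 in limma). At both probes every pair of lines thus passed the test, whose spread comes from the 2 cultures of a line. Without co-culture, P114 exceeded CMT-U27 by 3.44 and 3.34, and with co-culture by 3.59 and 3.26, so the distance between these lines was much the same in both cultures. It was also far larger than the ratio of co-culture over monoculture in any line, and the direction held under every scaling tried, with 3.05 to 3.66 at probe 1 and 2.68 to 3.43 at probe 2. P114 minus CMT-U309 kept its direction as well, with 0.61 and 0.37 when channels were not scaled, and passed the test in 10 and 9 of 11 fits. CMT-U27 minus CMT-U309 passed in 10 of 11 at both probes, the exception being normexp background correction, with -1.18 and -1.20.

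BNIP3L followed the same order with smaller steps. P114 exceeded CMT-U27 by 0.57 at probe 1 (SE 0.17, adjusted P = 0.0228), 1.25 at probe 2 (SE 0.15, adjusted P = 8.22e-05) and 1.87 at probe 3 (SE 0.19, adjusted P = 2.98e-05 in limma), and these passed in 6, 10 and 11 of 11 fits, with 0.10 at the lowest for probe 1. Between P114 and CMT-U309, probes 2 and 3 differed by 0.51 and 0.80 (adjusted P = 0.0273 and 0.0102 in limma), while probe 1 stood at 0.06 (SE 0.17, adjusted P = 0.837), with a direction that turned under other scalings. Probe 2 turned as well in that pair when channels were not scaled, and probes 2 and 3 passed in 5 and 8 of 11 fits. CMT-U27 was below CMT-U309 at the 3 probes by -0.51, -0.75 and -1.07, of which the difference at probe 1 turned to 0.32 with another background correction. At probe 3 the 4 channels ran from 172 to 275 in P114, from 93.2 to 177 in CMT-U309 and from 39.6 to 74.2 in CMT-U27, so that P114 and CMT-U309 overlapped slightly.

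FUNDC1 differed little between lines. Probe 1 was higher in P114 than in CMT-U27 by 0.59 (SE 0.15, adjusted P = 0.00943 in limma), which passed in 7 of 11 fits and fell to 0.12 at the lowest, and probe 2 by 0.39 (SE 0.16, adjusted P = 0.0849), which did not pass and changed sign when channels were not scaled and with another background correction. The other line differences of FUNDC1 lay between -0.27 and 0.32 and did not pass the test, and each of them changed sign when channels were not scaled or with another background correction.

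MAP1LC3A had the line order of BNIP3. It was higher in P114 than in CMT-U27 by 1.50 at probe 1 and 1.47 at probe 2 (SE 0.15 at both, adjusted P = 3.41e-05 and 3.36e-05 in limma). No channel overlapped between any of the lines at either of these probes, which share 59 bases. Of all bright probes, 51.7% did not overlap between P114 and CMT-U27, 42.5% between P114 and CMT-U309 and 57.3% between CMT-U27 and CMT-U309. P114 exceeded CMT-U309 by 0.80 and 0.63, which passed in 8 and 7 of 11 fits, and the second turned to -0.14 when channels were not scaled. CMT-U27 was below CMT-U309 by -0.70 and -0.84, of which the difference at probe 1 turned to 0.12 with another background correction.

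MAP1LC3B had no order that its probes shared. Probe 2 was higher in P114 than in CMT-U27 by 0.72 (SE 0.16, adjusted P = 0.00538 in limma, passed in 8 of 11 fits), while probes 1, 3 and 4 differed by 0.10, -0.21 and -0.04 and did not pass. Between CMT-U27 and CMT-U309, probes 1 and 3 were higher in CMT-U27 by 0.46 and 0.42 and probe 2 was lower by -0.49, all past the adjusted threshold, but probe 2 turned to 0.18 with another background correction, and probes 1, 2 and 3 passed in 5 of 11, 8 of 11 and 6 of 10 fits. Between P114 and CMT-U309 probe 1 was higher by 0.57 (SE 0.14, adjusted P = 0.013 in limma, passed in 7 of 11 fits) and the others by 0.21 to 0.28, which did not pass, and probes 1, 2 and 4 turned when channels were not scaled. Probe 2 also had correlations of 0.03, -0.10 and 0.11 with probes 1, 3 and 4 over the channel levels, against 0.48 to 0.64 among the latter.

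GABARAPL1 ran opposite to BNIP3. At probe 2 the 4 channels ran from 29922 to 42085 in CMT-U27, from 7033 to 10452 in CMT-U309 and from 4458 to 6148 in P114, without overlap. The shares of all bright probes without overlap are those given above for each pair of lines. P114 was lower than CMT-U27 by -2.85 at probe 1 (SE 0.20, adjusted P = 2.12e-06), -2.74 at probe 2 (SE 0.15, adjusted P = 3.42e-07) and -2.72 at probe 3 (SE 0.15, adjusted P = 4.51e-07 in limma). CMT-U27 exceeded CMT-U309 by 2.48, 2.06 and 2.34. P114 and CMT-U309 were closer, with -0.37, -0.69 and -0.38, of which only probe 2 passed (adjusted P = 0.0065 in limma). Probe 3 turned with another background correction. The differences that involve CMT-U27 kept their direction under every scaling and passed the test in each of 11 fits, main and alternative.

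**Figure D3:**
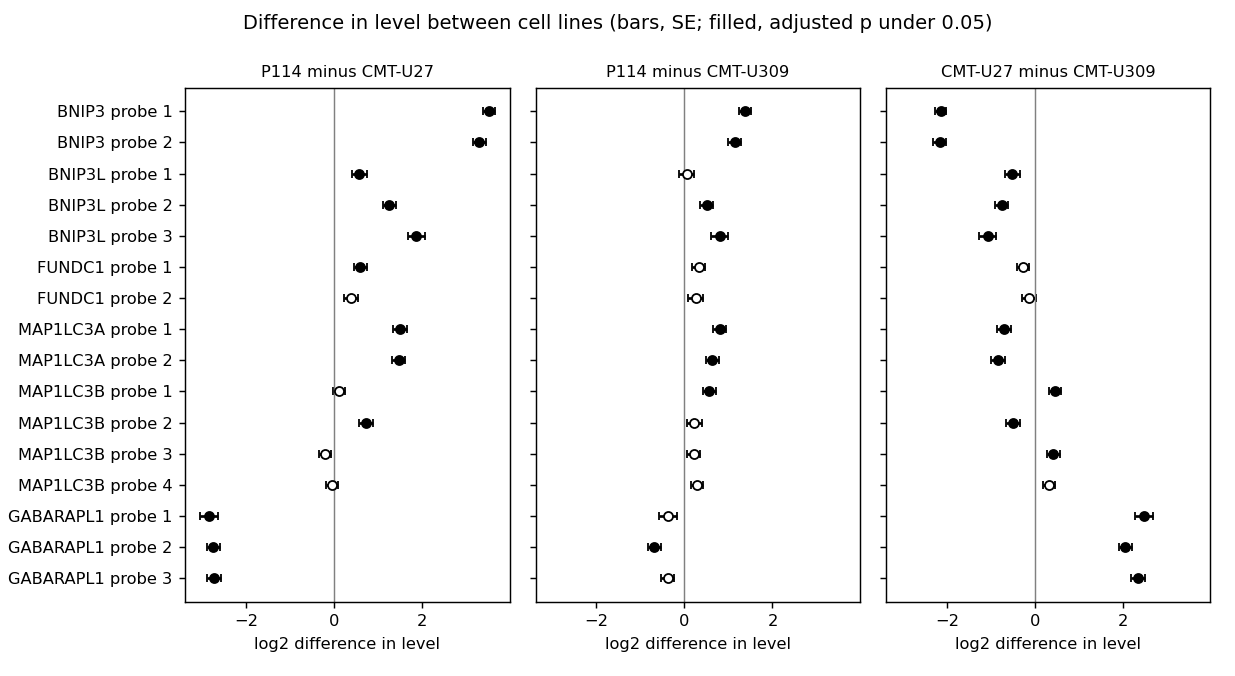
Difference in level between 2 lines on the log2 scale (x axis), with SE from limma as bars, for the 16 bright member probes. Filled points passed an adjusted P of 0.05; BNIP3, BNIP3L and MAP1LC3A lie right of 0 and GABARAPL1 left of 0 in P114 minus CMT-U27, where BNIP3 reached 3.52 and GABARAPL1 probe 1 reached -2.85.

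In the order of mean levels, 10 of the 16 bright member probes had P114 above CMT-U309 above CMT-U27, an order that 17.5% of all bright probes had. This count was 4 when channels were not scaled and 5 with normexp, and between 9 and 10 in the other fits. The 3 probes of GABARAPL1 had the opposite order, found in 16.2%. MAP1LC3B probes 3 and 4 had CMT-U27 above P114 above CMT-U309, found in 28.6%, and its probe 1 had P114 above CMT-U27 above CMT-U309, found in 15.4%. No member had CMT-U309 on top, which 15.2% of bright probes had with CMT-U27 lowest and 7.07% with P114 lowest, but 6 members did when channels were not scaled, and 1 did with quantile scaling, with centring on bright probes and without array 1 of every line. Over the 12 channel levels, the mean of the BNIP3 probes had a Pearson r of 0.98 with BNIP3L, 0.96 with MAP1LC3A, 0.81 with FUNDC1, 0.20 with MAP1LC3B and -0.95 with GABARAPL1. These are descriptions of 12 channels that share slides and RNAs, so they mostly follow the differences between 3 lines.

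Outside the members, the symbols most like BNIP3 by the same measure, among probes well above background in every channel, were VEGFA, a growth factor of blood vessels (r = 0.984), BCL2L1, an inhibitor of apoptosis that binds BNIP3 (r = 0.983), RAB11FIP2 (r = 0.981), DSCC1 (r = 0.980) and CHIC2 (r = 0.980), each over 12 channels. This VEGFA probe exceeded CMT-U27 in P114 by 2.63 and had a mean log2 ratio of 0.59 in co-culture, higher on 5 of 6 arrays. The BCL2L1 probe exceeded CMT-U27 in P114 by 2.12 and had a ratio of 0.32, higher on 6 of 6 arrays. RAB11FIP2, DSCC1 and CHIC2 had ratios of 0.10, 0.18 and 0.23.

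Genes of the surrounding pathways were described by the brightest probe of each gene, over 84 genes in 5 lists. None passed the thresholds of the study in co-culture over monoculture in either direction, beside the 1.03% and 0.198% of all tested probes. The known targets of HIF-1 were the list with the highest median, 0.36 over the 19 of 22 genes that have a probe. Of its 18 bright genes, 7 (38.9%) were higher on 6 of 6 arrays, where 3.97% of all bright probes were. These were VEGFA, HK2, ANKRD37, P4HA1, CA9, EGLN1 and DDIT4, named after their values were seen, and their mean log2 ratios ran from 0.32 for the carbonic anhydrase CA9 to 0.70 for DDIT4, an inhibitor of mTOR signaling. VEGFA stood at 0.37 at its brightest probe, which is not the probe most like BNIP3 and had CMT-U309 above P114. The brightest genes of the list were the glycolytic enzymes LDHA with 0.08 (SD 0.19) and ENO1 with 0.48 (SD 0.33), higher on 3 and 5 of 6 arrays (n = 3 lines). HIF1A itself, the regulated subunit of HIF-1, is counted in the list and stood at -0.02. The targets P4HA2 and KDM3A were also below 0, at -0.10 and -0.02. The lists were chosen with earlier results of these data known, so nothing is read from the count. A part of HIF-1 in these ratios was not tested.

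In levels, 14 of the 19 genes on the list of HIF-1 targets (73.7%), HIF1A among them, were higher and 1 lower in P114 than in CMT-U27, beside 19.7% and 21.7% of all probes. LDHA differed by 1.30 and ENO1 by 0.90 (adjusted P = 8.80e-05 and 0.00225 in limma). The order of BNIP3, with P114 above CMT-U309 above CMT-U27, was seen in 12 of the 18 bright genes of the list (66.7%), again with HIF1A among them, and in 17.5% of all bright probes. These counts are for the main scaling only. Over all probes, the share of calls that were higher in P114 than in CMT-U27 moved from 47.6% to 20.9% without scaling. The list holds the brightest probe of each gene, whereas 19.7% and 21.7% are over all tested probes.

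Core autophagy genes had a median log2 ratio of -0.05 over 26 of 27 genes, and 0 of 21 bright genes were higher on 6 of 6 arrays. The brightest were ATG3, the enzyme that attaches LC3 to lipid, with -0.10 (SD 0.27), and WIPI2, an early autophagosome protein, with 0.02 (SD 0.25). Lysosomal genes had a median of 0.05 over 12 of 14 genes, with LAMP1, a membrane protein of the lysosome, at -0.14 (SD 0.14) and the protease CTSB at 0.04 (SD 0.11). Other receptors and regulators of mitophagy had a median of 0.02 over 20 of 23 genes, with the outer membrane channel VDAC1 at -0.29 (SD 0.25) and CSNK2B, a subunit of casein kinase 2, at 0.11 (SD 0.14). Of 19 bright genes in this list, 1 (5.26%) was higher on 6 of 6 arrays, FIS1 with 0.18, named after its value was seen. Partners of BNIP3 had a median of 0.03 over 7 genes, with BCL2L1 as above and the GTPase RHEB at 0.15 (SD 0.08). In P114 against CMT-U27, 5 of 26 core autophagy genes were higher and 8 lower, 0 and 4 of 12 lysosomal genes, 2 and 8 of 20 other mitophagy genes, and 2 and 5 of 7 BNIP3 partners, beside 19.7% and 21.7% of all probes. The lists hold the brightest probe of each gene, whereas these shares are over all tested probes, bright or not.

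**Figure D4:**
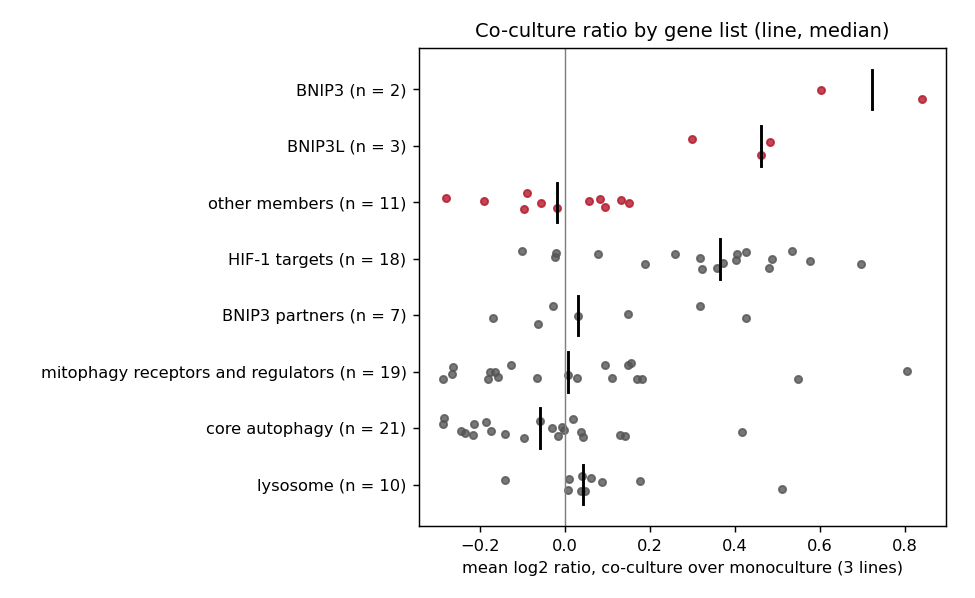
Mean log2 ratio of co-culture over monoculture of 3 lines (x axis), with 1 point per probe for BNIP3, BNIP3L and the other members and 1 point per gene, at its brightest probe, for the pathway lists; only probes well above background in all 12 channels are drawn. Black lines mark medians, which were 0.72 for BNIP3, 0.46 for BNIP3L, -0.02 for the other members and 0.36 for the HIF-1 targets.

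Markers of myeloid cells were examined because the inserts held such cells. Of 12 markers, 10 have a probe, 2 of these (CD68 and S100A8) were well above background in all channels, and ITGAM and LYZ were in none. Their median log2 ratio in co-culture over monoculture was 0.13. The summed signal of the list ran from 1436 to 13612 in co-culture channels and from 1335 to 8020 in monoculture channels, and the lines differed. In CMT-U27 it was 13493 and 13612 in co-culture and 7686 and 8020 in monoculture, higher in co-culture on both arrays without overlap. S100A8 had a log2 ratio of 0.85 in that line. Other markers went both ways there, with CD68 at 0.36 and TYROBP, which was not bright, at -1.31. Over both cultures S100A8 was higher in CMT-U27 than in CMT-U309 by 6.56, and P114 minus CMT-U27 was -4.31. In monoculture alone the summed signal of the other lines was only 1335 to 1672. In P114 and CMT-U309 the summed signal was higher in co-culture on array 1 and lower on array 2. CD68 stood at 0.18 (SD 0.16) and S100A8 at 0.08 over all lines (SD 0.67, n = 3 lines). The ratio of BNIP3 in CMT-U27 was 0.48 and 0.75 at its probes, and without CMT-U27 the mean over both probes was 0.77. The part of these markers in the ratio of BNIP3 was not tested.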

How the data were processed

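Total RNA of 3 tumor lines was compared on 6 dye-swapped Agilent arrays. The authors deposited scanner output of Feature Extraction 10.10.1.1 with processed signal intensity per dye, background-subtracted and adjusted between dyes. They also deposited log10 ratios, which matched that output turned to co-culture over monoculture. Arrays were grouped by the labels of their channels. Here the channels were brought to one median, outlier and control spots were dropped, probes that never exceeded an intensity of 10 were removed, and each dye-swap was averaged. Ratios and levels were fitted with limma 3.58.1 (trend) in R 4.3.3 on the log2 scale over 40861 probes. Figures were drawn with matplotlib 3.10.9. The fits were run on simulated data with independent noise, which does not measure their power or error on these arrays.

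Members and lists were chosen with earlier results of these data known. Named were all member probes, the 2 genes with the brightest probes per list, listed genes past the thresholds (0 genes), and the 5 symbols most like BNIP3 among those in the reference table of dog genes. Alternatives were normexp (offset 50, with loess for ratios), the deposited ratios, no scaling, quantile scaling of levels, other probe filters, the methods' t-test, no trend, fits of 6 arrays, outlier spots kept, and each array or line left out. Centring on bright probes was added after seeing the data. The number of arrays limits the precision.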

Additional observations from a re-analysis of the deposited data

Results flagged for a closer look

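Arrays of a line were compared with those of another line in the ratio of co-culture over monoculture, and member probes were noted where all arrays of a line pointed one way and all arrays of the other line the opposite way. None of these differences was tested, since a line has 1 pair of RNAs. MAP1LC3A was lower in co-culture in P114 and higher in the other lines at both overlapping probes. At probe 1 the mean log2 ratio was -0.14 in P114 and 0.39 in CMT-U27, a difference of -0.53, and 0.14 in CMT-U309, a difference of -0.28. At probe 2 it was -0.11 in P114 and 0.38 in CMT-U27, a difference of -0.49, and 0.17 in CMT-U309, a difference of -0.28. MAP1LC3B probe 1 had 0.11 in P114 and -0.26 in CMT-U309, a difference of 0.36.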

How the results depend on the processing

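With other processing, or with arrays or lines left out, the mean ratio of BNIP3 stayed between 0.63 and 0.77. Settings that change only the test or the probe filter cannot move it. The line differences of BNIP3 kept their direction in all fits. Calls across all probes depended strongly on the setting. In co-culture over monoculture, 3 probes were higher and 0 lower under normexp with loess, 27 and 11 among probes well above background in a condition, and 82 and 35 in the methods' t-test. The fit of 6 arrays without a dye term gave 269 higher and 5 past the adjusted threshold, and each of these settings left 0 member probes higher. Arrays with the same number correlated at -0.22 to 0.61 across lines. The number coincides with the dye in every line, so these correlations cannot tell a dye effect from a pairing. The replicate block gave 461 higher, 81 lower and 6 past the adjusted threshold. With an array or line left out, 31 to 3260 probes were higher, 50 to 2341 lower and 0 to 6330 past the adjusted threshold, with 0 to 1 member probes higher and 0 to 3 genes of the pathway lists higher. The largest of these counts came without array 1 of every line (3260 and 2341) and without P114 (6330), where the mean ratio of BNIP3 was 0.72 and 0.75.

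In levels, counts are given as higher and lower. Without scaling they were 3928 and 14828 for P114 minus CMT-U27, 1697 and 19823 for P114 minus CMT-U309, and 12520 lower for CMT-U27 minus CMT-U309. Member probes then gave 5 lower, 1 higher and 8 lower in the first 2 contrasts. With normexp the counts were 1972 and 4710, 1411 and 1176, and 2411 lower, with 3 member probes higher in P114 than in CMT-U27, 0 either way against CMT-U309, and 1 lower in CMT-U27 than in CMT-U309. Bright probes alone gave 5291 higher, 3006 lower and 4525 lower. Without a trend, 4174 probes were higher in P114 than in CMT-U309, with 3 member probes higher and 0 lower, and 3 higher and 5 lower for CMT-U27 minus CMT-U309. Quantile scaling and centring on bright probes both gave 2 member probes lower in P114 than in CMT-U309 and 3 higher in CMT-U27 than in CMT-U309. With either array of each line left out, P114 minus CMT-U27 gave 5881 to 7380 higher and 7587 to 8083 lower (7 to 10 and 3 member probes), P114 minus CMT-U309 4931 to 7292 and 4010 to 4204 (4 to 9 and 2), and CMT-U27 minus CMT-U309 8847 to 10542 and 6237 to 7088 (3 to 5 and 7).

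Some line differences turned. BNIP3L probe 1, P114 minus CMT-U309, was -0.49 with quantile scaling, -0.71 without scaling, -0.0807 with centring, and -0.24 and 0.35 without arrays 1 or 2 of every line. Without scaling, P114 minus CMT-U309 was also -0.26 at BNIP3L probe 2, -0.45 and -0.52 at the FUNDC1 probes, -0.14 at MAP1LC3A probe 2, and -0.20, -0.54 and -0.48 at MAP1LC3B probes 1, 2 and 4, and P114 minus CMT-U27 was -0.0787 at FUNDC1 probe 2 and -0.36 at MAP1LC3B probe 1. With normexp, CMT-U27 minus CMT-U309 was 0.32 at BNIP3L probe 1, 0.21 and 0.39 at the FUNDC1 probes, 0.12 at MAP1LC3A probe 1 and 0.18 at MAP1LC3B probe 2. P114 minus CMT-U27 was then -0.00749 at FUNDC1 probe 2 and -0.24 at MAP1LC3B probe 1. MAP1LC3B probe 4 turned to 0.12 with quantile scaling and 0.0526 with centring in P114 minus CMT-U27, and GABARAPL1 probe 3 to 0.094 with normexp in P114 minus CMT-U309, with -0.81 to 0.046 when arrays were left out. The cause was not tested.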
